A study of Mus musculus with 8 samples.

Results

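Known target genes of Wnt/β-catenin signalling were followed across sorted intestinal cells, namely Axin2, Nkd1, Bambi, Sp5, Sox9, Tcf7, Lef1, Ccnd1, Myc and Cd44. They were chosen by name, and all 10 of 10 were found among the 24013 gene symbols of the deposited expression table. The cells were intestinal epithelial cells of Lyz1CreER; R26R-tdT mice, in which a tamoxifen-dependent Cre recombinase is driven by the promoter of Lyz1, a lysozyme gene active in Paneth cells, and permanently switches on the red protein tdTomato in Lyz1-expressing cells and their descendants. Live EpCAM-positive, CD45-negative, tdTomato-positive cells were divided by the surface protein CD24 and their RNA was sequenced. There were 3 groups, which are irradiated CD24− cells (the labelled derivatives outside the Paneth gate, 3 libraries), irradiated CD24+ cells (the Paneth gate, 3 libraries) and non-irradiated CD24+ cells (2 libraries). The mice of all groups carried the same alleles on a mixed background (C57/BL6; 129), were aged 8 to 14 weeks and had been given 1 tamoxifen dose (10 mg per mouse). Irradiated mice were sorted 5 days after irradiation. No CD24− library from a non-irradiated mouse was used here. Neither the radiation dose nor the time from tamoxifen to sorting is given in the sources used here. The labels do not tie each library to its own mouse, and the p-values thus reflect library-to-library spread, which may be technical.

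Wnt ligands at the crypt base stop a cytoplasmic destruction complex, built on APC and AXIN, from degrading β-catenin, which then enters the nucleus and works with DNA-binding factors of the TCF/LEF family. Stem cells and Paneth cells both depend on this signal, and it fades along the crypt as cells move toward the villus and become absorptive. Several of its target genes feed back on the pathway, others are transcription factors of crypt cells, and a few drive the cell cycle.

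Promoter windows of RefSeq (build GRCm38.p6, from 250 bases before to 50 bases after a listed start, which can lie inside the gene) were available for 6 of the 10 genes. These are Axin2, Nkd1, Sp5, Tcf7, Lef1 and Cd44. They were searched for the TCF/LEF core motif, written as CTTTGAA or CTTTGAT, on both strands. Of all 32851 windows of 300 bases 8.65% held it, and of all 27025 genes with a window 9.88% had it in at least 1. Among the 6 genes it was found in 1, Sp5, where CTTTGAT begins 104 bases before the start. The Sp5 window is shown because it holds the match (in capitals). Those of Axin2 and Nkd1 are shown beside it because both genes, unlike Sp5, were lower in the derivatives. Their windows hold no match, and neither do those of Tcf7, Lef1 and Cd44. A link between the motif and the levels was not tested. Absence of these letters from a window says nothing about binding elsewhere. The Sp5 window surrounds the start of its locus (chr2:70474923). Those of Axin2 and Nkd1 surround later starts, inside loci that begin at chr11:108917828 and chr8:88521342. The windows lie at chr2:70474673-70474972 on the plus strand (Sp5), chr11:108920099-108920398 on the plus strand (Axin2) and chr8:88527383-88527682 on the plus strand (Nkd1).
Sp5: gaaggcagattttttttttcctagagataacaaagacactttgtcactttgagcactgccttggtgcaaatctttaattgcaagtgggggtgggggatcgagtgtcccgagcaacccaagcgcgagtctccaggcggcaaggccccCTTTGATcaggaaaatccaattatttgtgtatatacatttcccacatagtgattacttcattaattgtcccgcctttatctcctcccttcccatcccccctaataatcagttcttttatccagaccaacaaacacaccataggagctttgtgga
Axin2: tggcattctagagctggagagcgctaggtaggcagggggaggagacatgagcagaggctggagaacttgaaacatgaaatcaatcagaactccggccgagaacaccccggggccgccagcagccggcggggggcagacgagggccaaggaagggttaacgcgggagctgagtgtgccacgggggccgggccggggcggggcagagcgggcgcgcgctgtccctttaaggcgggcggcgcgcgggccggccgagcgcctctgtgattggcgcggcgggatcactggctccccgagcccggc
Nkd1: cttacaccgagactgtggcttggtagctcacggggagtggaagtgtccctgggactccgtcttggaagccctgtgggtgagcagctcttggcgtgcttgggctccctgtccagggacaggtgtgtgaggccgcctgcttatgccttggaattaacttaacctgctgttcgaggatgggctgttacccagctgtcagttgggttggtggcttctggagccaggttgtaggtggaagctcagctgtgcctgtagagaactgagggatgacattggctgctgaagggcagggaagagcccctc

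Levels are given in FPKM, fragments per kilobase of transcript scaled to the mapped fragments of a library, as the authors computed them. Total FPKM was 540467 to 582799 in irradiated CD24− libraries, 1329221 to 1429911 in irradiated CD24+ libraries and 1435059 to 1638347 in non-irradiated CD24+ libraries, and Paneth cell products made up 1.55% to 10.3% of it in irradiated CD24−, 60.02% to 62.6% in irradiated CD24+ and 62.3% to 69.1% in non-irradiated CD24+ libraries. Depth, approximated from the smallest FPKM steps, was 34.6 to 45.2 (in units of 1e6 fragments) per library. Fold changes are on the log2(FPKM + 1) scale, which understates the change of genes near or under 1 FPKM, and "called" means an adjusted p under 0.05 in a limma fit with Benjamini-Hochberg adjustment over all 11190 genes that reached 1 FPKM in at least 2 libraries. Of the 10 target genes 9 passed that filter and Lef1 did not. In bulk samples, fewer cells of a type and less RNA per cell cannot be told apart.

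In irradiated CD24− cells Ccnd1 was the most abundant of the 10 genes at 27.1 ± 6.96 FPKM (SD, n = 3), with no other library value of any member in its range. Axin2 (6.90), Myc (5.86), Cd44 (4.72), Sox9 (3.13) and Sp5 (2.67 mean FPKM) followed, and neighbours in that order overlapped between libraries. Tcf7 (1.04) and Bambi (1.01) stood lower, Nkd1 averaged 0.191 FPKM, and Lef1 averaged 0.00215 FPKM. In irradiated CD24+ cells the order was Ccnd1 (20.1), Bambi (19.1), Axin2 (15.7), Myc (12.3), Sox9 (12.3), Cd44 (9.57), Tcf7 (4.70), Nkd1 (4.21), Sp5 (1.21) and Lef1 (0.0484 mean FPKM). In non-irradiated CD24+ cells Bambi led at 21.2 FPKM, ahead of Sox9 (11.3), Axin2 (10.01), Ccnd1 (8.99), Myc (7.93), Nkd1 (4.79), Tcf7 (3.79), Cd44 (3.74), Sp5 (0.728) and Lef1 (0.0957). In each CD24+ group most neighbours in the order lay within each other's spread, and Sp5 and Lef1 lay below the other 8 genes in every CD24+ library. Bambi thus held the second or first place in the CD24+ groups and the eighth in CD24− cells, while Sp5 held the ninth place in both CD24+ groups and the sixth in CD24− cells.

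**Figure D1:**
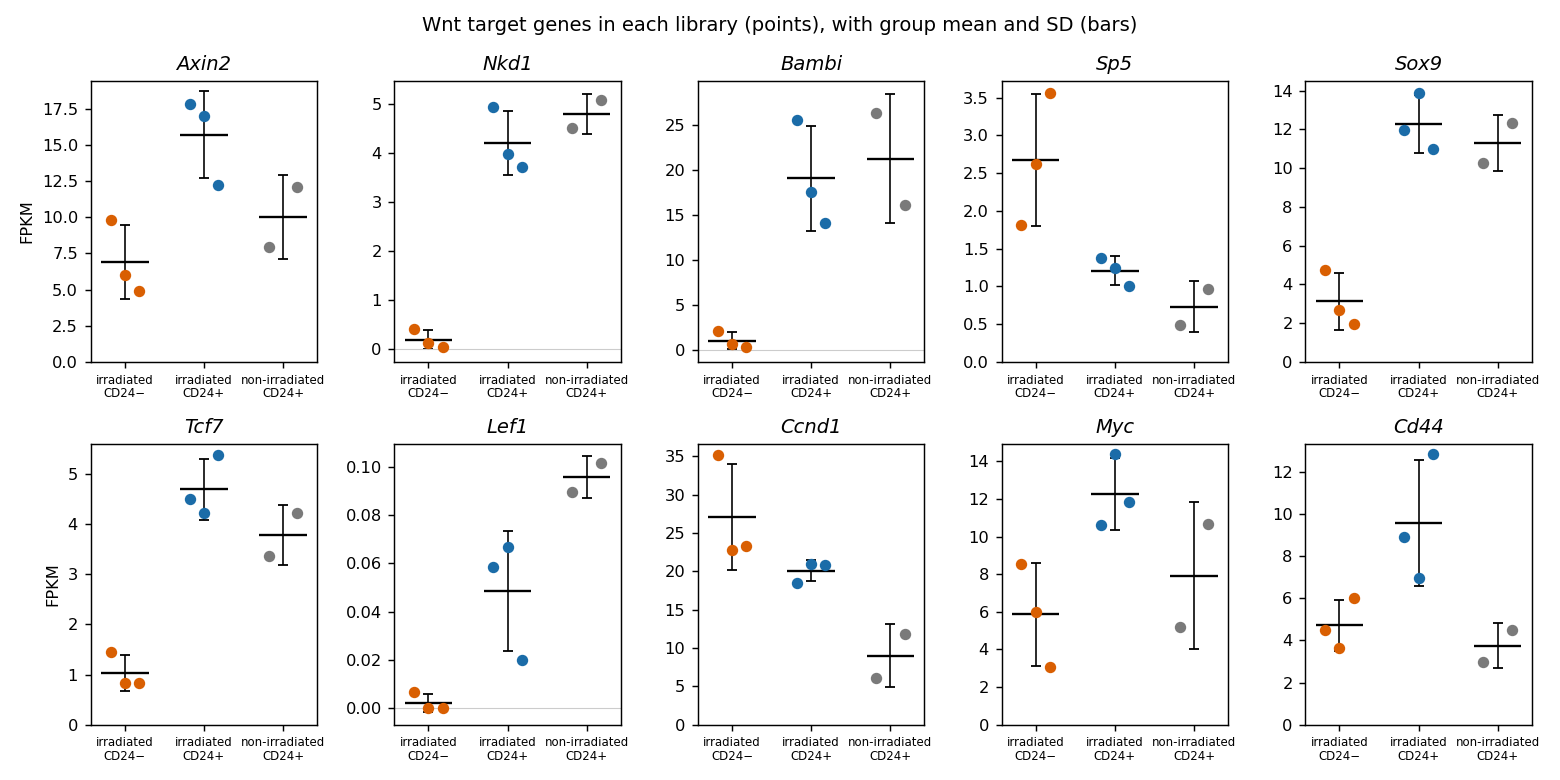
FPKM of each Wnt target gene (vertical axis, its own scale per panel) in every library, shown as points for irradiated CD24−, irradiated CD24+ and non-irradiated CD24+ cells, with the group mean and SD as bars. Nkd1 and Bambi are near 0 in the CD24− libraries, Sp5 and Ccnd1 are highest there, and Cd44 is highest in irradiated CD24+ cells.

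The comparison of irradiated CD24− with irradiated CD24+ cells asks how Wnt target genes differ between labelled derivatives and the Paneth gate of irradiated mice. Of the 9 genes tested 7 fell, which were Bambi, Nkd1, Sox9, Tcf7, Axin2, Myc and Cd44, 1 rose, Sp5, and 1, Ccnd1, was not called. Over all genes 7.27% were called lower and 48.6% higher, so the falls went against the more frequent direction. Bambi, Nkd1, Sox9 and Tcf7 were lower under every scaling run, while the fold changes of Axin2, Myc and Cd44 turned positive under TPM, a rescaling to equal library sums. The median of the 9 log2 fold changes was -1.11, against 0.51 over all genes tested. All 7 genes that fell had every CD24− library below every CD24+ library, which held for 9.31% of all genes.

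Nkd1 and Bambi fell to 0.0453 and 0.0530 of their CD24+ means, the lowest ratios of the 9 genes. Nkd1, which binds Dishevelled and dampens Wnt signalling, stood at 0.414, 0.113 and 0.0455 FPKM in irradiated CD24− replicates 1, 2 and 3, against 4.95, 3.98 and 3.71 FPKM in irradiated CD24+ replicates 1, 2 and 3. The groups were far apart, and on the log2(FPKM + 1) scale Nkd1 fell by 2.13 ± 0.18 (SE, adjusted p = 7.64e-06). Bambi, a pseudoreceptor that blunts signalling by the TGF-β and BMP family, had 2.06, 0.630 and 0.336 FPKM in CD24− libraries, against 25.5, 17.6 and 14.1 FPKM in CD24+ libraries. Its groups were as clearly separated, and Bambi fell by 3.37 ± 0.33 on the log2 scale (SE, adjusted p = 1.4e-05), which gave it rank 50 from the lowest among 11190 genes. Axin2, a scaffold of the destruction complex and the most used readout of the pathway, had 9.80, 6.002 and 4.88 FPKM in CD24− libraries, against 17.8, 17.02 and 12.3 FPKM in CD24+ libraries. The highest CD24− library of Axin2 came near the lowest CD24+ one, and the gene fell by 1.11 ± 0.26 (SE, adjusted p = 0.00393).

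The transcription factors split. Sox9, an HMG-box factor that Paneth cells need to form, had 4.76, 2.69 and 1.94 FPKM in irradiated CD24− libraries, against 11.95, 13.9 and 10.98 FPKM in irradiated CD24+ libraries. It fell by 1.74 ± 0.24 (SE, adjusted p = 0.000142). Tcf7, which encodes the β-catenin partner TCF1, had 1.45, 0.830 and 0.829 FPKM in CD24− libraries, against 4.50, 4.22 and 5.37 FPKM in CD24+ libraries, and fell by 1.49 ± 0.18 (SE, adjusted p = 5.95e-05). Both genes were well separated between the gates. Myc, the growth-promoting transcription factor, had 8.56, 5.97 and 3.04 FPKM in CD24− libraries, against 10.6, 14.4 and 11.8 FPKM in CD24+ libraries, a fall of 1.03 ± 0.32 (SE, adjusted p = 0.0178). Its CD24− libraries ranged over almost as wide a span as the distance between the groups. Sp5, a zinc-finger factor, was the exception, with 1.81, 2.63 and 3.56 FPKM in CD24− libraries, against 1.38, 1.25 and 1.01 FPKM in CD24+ libraries. It rose by 0.71 ± 0.20 (SE, adjusted p = 0.0114), but the median gene rose by 0.51, so Sp5 stood only 0.20 above it. Lef1, the close relative of Tcf7, was listed at 0.00646, 0 and 0 FPKM in CD24− libraries and at 0.0583, 0.0669 and 0.0201 FPKM in CD24+ libraries, far below 1 FPKM in both groups.

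Of the growth and adhesion genes, Cd44 fell and Ccnd1 was not called. Cd44, which encodes the hyaluronan receptor of crypt cells, had 4.49, 3.63 and 6.04 FPKM in irradiated CD24− libraries, against 8.92, 6.96 and 12.8 FPKM in irradiated CD24+ libraries. The groups did not overlap but lay close, and Cd44 fell by 0.87 ± 0.25 (SE, adjusted p = 0.011). Ccnd1, which encodes cyclin D1, had 35.1, 22.8 and 23.3 FPKM in CD24− libraries, against 18.5, 20.9 and 20.8 FPKM in CD24+ libraries. Its log2 fold change was 0.39 ± 0.26 (SE, adjusted p = 0.221), which is 0.12 less than the median gene. In the GENCODE M21 annotation 1100 of the 4709 exon bases of Ccnd1 overlap LTO1 (Oraov1), which lies on the opposite strand, and the library kit keeps no strand, so the Ccnd1 values can hold reads of that gene. Oraov1 had 7.78 ± 0.704 FPKM in CD24− cells and 4.93 ± 0.663 FPKM in CD24+ cells (SD, n = 3 each). Axin2 shares 209 of 5506 exon bases with an antisense transcript.

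**Figure D2:**
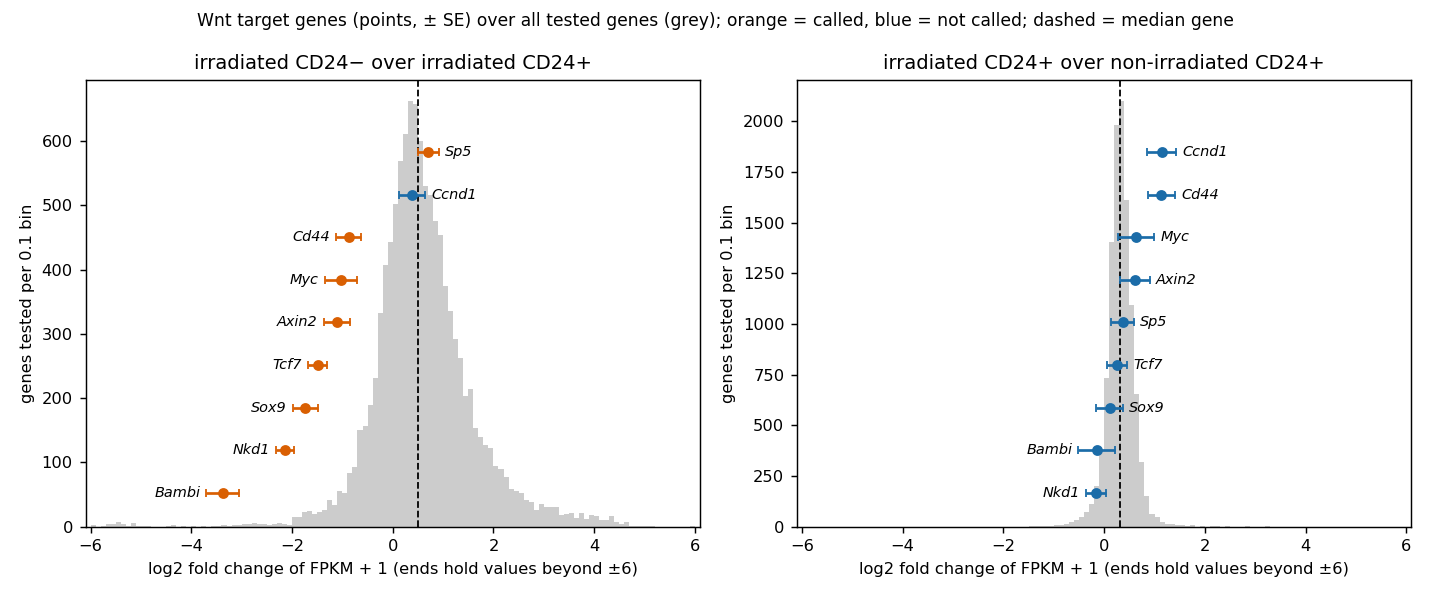
Log2 fold changes of FPKM + 1 (horizontal axis) of the 9 tested Wnt target genes as points ± SE, over a histogram of all 11190 tested genes (vertical axis, genes per bin), for irradiated CD24− over irradiated CD24+ cells (left) and irradiated CD24+ over non-irradiated CD24+ cells (right). On the left 7 genes lie in the lower tail, and on the right none is called, with Ccnd1 and Cd44 at the upper edge.

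The calls differed in how firmly they held when libraries or settings were changed. Sox9, Nkd1, Bambi and Tcf7 were called lower in each of the 16 or 17 alternatives in which they were tested. Cd44 missed the threshold without CD24− replicate 2 (adjusted p = 0.0524) or CD24+ replicate 3 (0.0542), where leaving out other libraries gave adjusted p as low as 0.00527. Myc missed it without CD24− replicate 3 (0.0577) or CD24+ replicate 2 (0.0585), where leaving out other libraries gave as low as 0.00582, and also with no filter on low values (0.0657).

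The scaling between libraries changed several calls. After median-of-ratios scaling, which centres the median gene near 0, 29.9% of all genes were called higher and 27.7% lower, and the same 7 genes were called lower. Axin2 then fell by 1.66 (adjusted p = 0.00034) and Sp5 was no longer called (log2 fold change 0.29, adjusted p = 0.214). With each library rescaled to the same sum (TPM, in which a value is a share of the library's transcripts) 89.4% of all genes were called higher and 2.32% lower, with the median gene at 1.60. Under TPM Sox9, Nkd1, Bambi and Tcf7 were still called lower, Ccnd1 and Sp5 were called higher, and Axin2, Cd44 and Myc were not called (log2 fold changes 0.036, 0.23 and 0.087). Leaving out the Paneth products and rescaling the remainder called the same 8 genes in the same directions as the deposited values.

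**Figure D3:**
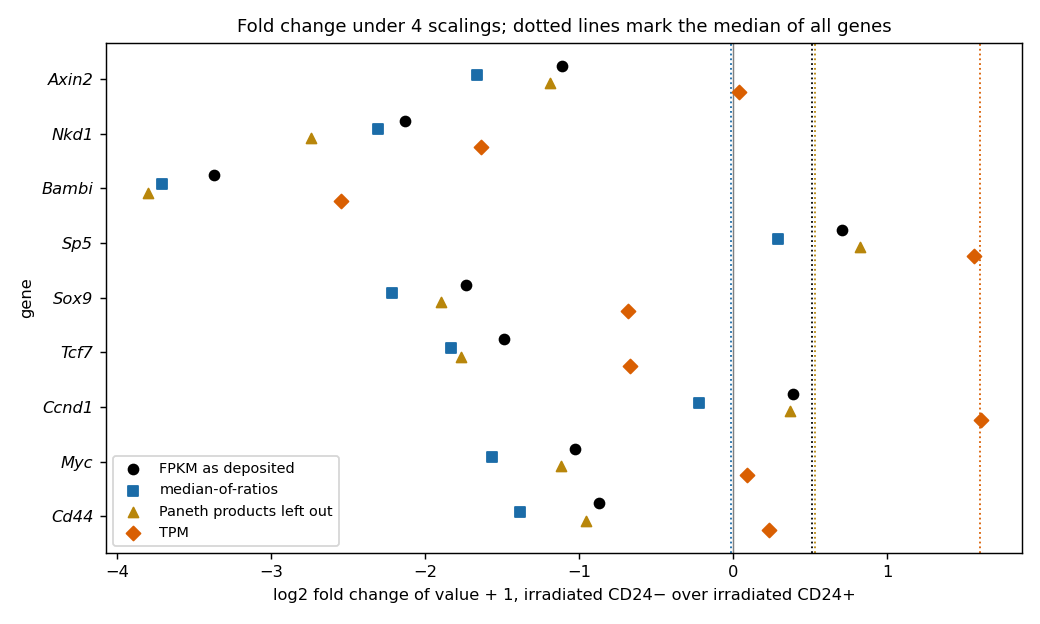
Log2 fold change of value + 1 (horizontal axis), irradiated CD24− over irradiated CD24+ cells, of the 9 tested Wnt target genes (rows) under 4 scalings (markers), with dotted lines at the median of all genes in each. Sox9, Nkd1, Bambi and Tcf7 lie below 0 under all 4, while Axin2, Myc and Cd44 lie at 0.036 to 0.23 under TPM.

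The CD24− libraries also differed among themselves. The median of 33 Paneth cell products stood at 7.40%, 1.91% and 0.864% of its irradiated CD24+ level in CD24− replicates 1, 2 and 3, with a 10th to 90th percentile range of 5.30% to 9.22%, 0.910% to 2.44% and 0.133% to 1.35%. Nkd1 stood at 9.83%, 2.68% and 1.08% of its CD24+ mean in the same 3 libraries, and Bambi at 10.8%, 3.30% and 1.76%. Both lay close to the Paneth products in every library. Sox9 stood at 38.8%, 21.9% and 15.8%, Tcf7 at 30.9%, 17.7% and 17.7%, and Axin2 at 62.5%, 38.3% and 31.1%, all above the 90th percentile of the Paneth products. Myc stood at 69.7%, 48.6% and 24.8%, and Cd44 at 46.9%, 37.9% and 63.04%. Sp5 ran the other way, at 150.1%, 217% and 295%. Ccnd1 stood at 175%, 114% and 116%, beside 163%, 151% and 145% for the median of all genes. Axin2, Nkd1, Bambi, Sox9, Tcf7, Myc and Ccnd1 were highest in CD24− replicate 1, as were the medians of the Paneth products and of all tested genes, while Cd44 and Sp5 were highest in replicate 3. The part of remaining Paneth cells or their RNA in these values was not tested.

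**Figure D4:**
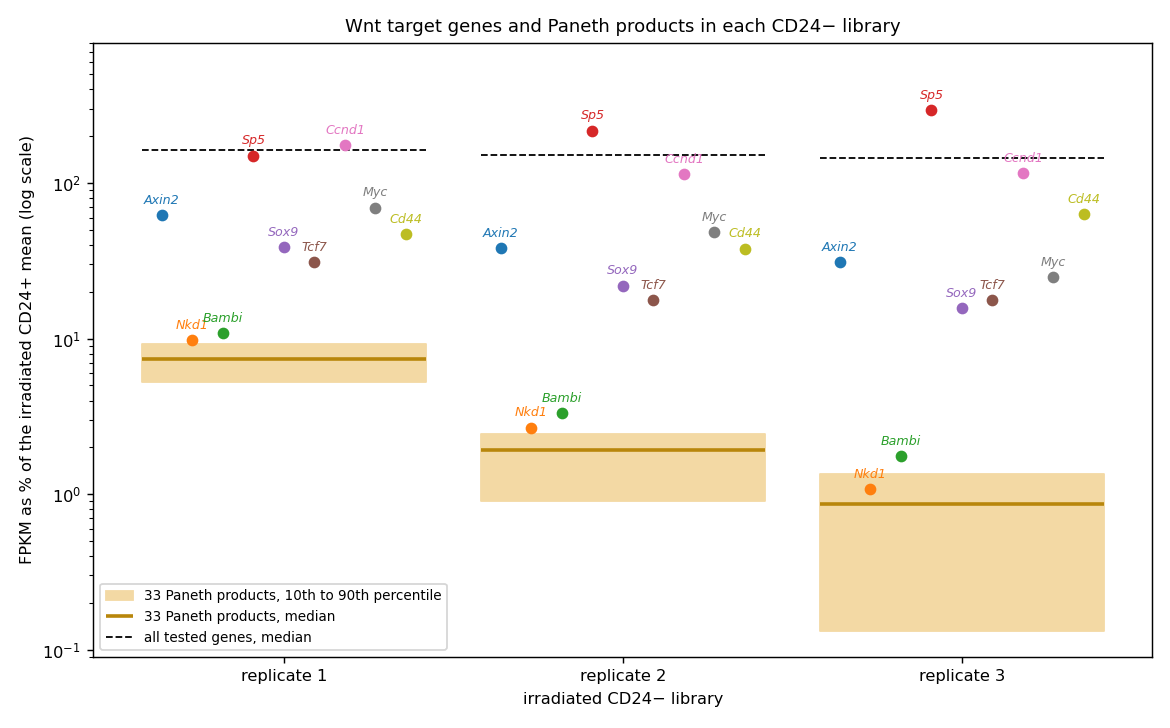
FPKM in each irradiated CD24− library as a percentage of the irradiated CD24+ mean (vertical axis, log scale) for 9 Wnt target genes (Lef1, at 0 in 2 libraries, is left out), with the 10th to 90th percentile and the median of 33 Paneth products and the median of all tested genes. Nkd1 and Bambi sit within or just above the Paneth band in all 3 libraries, and the others sit above it.

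Several lists of markers of other cells differed between the gates on the deposited values, and others did not or went both ways. Over all genes 48.6% were called higher and 7.27% lower (29.9% and 27.7% after median-of-ratios scaling, 89.4% and 2.32% under TPM). Several of the counts below moved under these scalings. All 12 of 12 enterocyte markers were called higher in irradiated CD24− cells, and they summed to 16630 to 36308 FPKM in irradiated CD24− libraries and 857 to 1362 FPKM in irradiated CD24+ libraries. Crypt base columnar stem cell markers (9 of 9 called lower, but 2 of 9 under TPM) summed to 476, 339 and 72.4 FPKM in CD24− replicates 1, 2 and 3, against 1069 to 1319 FPKM in CD24+ libraries. Proliferation markers summed to 144 to 269 FPKM in CD24− and 179 to 277 FPKM in CD24+ libraries, which overlapped, and 0 of 10 were called. After median-of-ratios scaling 6 of the 10 were called lower, and under TPM 5 were called higher. Goblet markers summed to 4915 to 9089 FPKM in CD24− and 3494 to 4055 FPKM in CD24+ libraries, with 3 of 8 called higher and 2, Spdef and Ccl6, called lower. After median-of-ratios scaling 2 of the 8 were called higher and 4 lower, and under TPM 6 higher and 1 lower. Enteroendocrine markers summed to 551 to 3868 FPKM in CD24− and 373 to 1453 FPKM in CD24+ libraries, with Cck, Gcg and Pyy called higher and Ghrl lower among 10. After median-of-ratios scaling 0 of the 10 were called higher and 1 lower, and under TPM 9 higher and 0 lower. Tuft markers (9 of 10 in the table) summed to 2.39 to 4.47 FPKM in CD24− and 9.52 to 23.1 FPKM in CD24+ libraries. Of these 7 were tested and 6 were called lower (7 after median-of-ratios scaling, 4 under TPM). Stromal markers (10 of 10, 1 of them listed at 0 in every library) summed to 4.06 to 44.7 FPKM in CD24− and 1.96 to 10.9 FPKM in CD24+ libraries. Nearly all of each sum was Vim, at 3.90 to 43.5 FPKM in CD24− and 1.88 to 10.4 FPKM in CD24+ libraries. Vim was the 1 tested and was not called. Immune markers (10 of 10) summed to 7.76 to 48.8 FPKM in CD24− and 367 to 511 FPKM in CD24+ libraries. Lyz2, which is also among the Paneth products, made up 44.2% to 73.6% of that sum in CD24− and 99.2% to 99.6% in CD24+ libraries. Without Lyz2 the other 9 summed to 4.33 to 12.9 FPKM in CD24− and 1.998 to 4.16 FPKM in CD24+ libraries, and Itgam was called higher in CD24− cells (log2 fold change 1.23, adjusted p = 0.000124). The part of these cells in the differences was not tested.

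The comparison of irradiated with non-irradiated CD24+ cells asks what had changed within the Paneth gate 5 days after irradiation. No target gene was called, and limma called 0% of all genes higher and 0% lower. At an unadjusted p under 0.05 there were 2 of the 9 genes, Ccnd1 and Cd44, against 1424 of all genes (12.7%). Both lay at the upper edge of all fold changes, at the 99.25th and 99.23rd percentile. Ccnd1 had 18.5, 20.9 and 20.8 FPKM in irradiated libraries, against 6.099 and 11.9 FPKM in non-irradiated replicates 1 and 2, so that its log2 fold change was 1.14 ± 0.29 (SE, limma adjusted p = 0.348), or 0.82 relative to the median gene. Cd44 had 8.92, 6.96 and 12.8 FPKM in irradiated libraries, against 2.99 and 4.50 FPKM in non-irradiated libraries, and its log2 fold change was 1.14 ± 0.28 (SE, limma adjusted p = 0.348), or 0.81 relative to the median gene. For both genes every irradiated library lay above both non-irradiated ones. Cd44 averaged 4.72 ± 1.22 FPKM in irradiated CD24− cells (SD, n = 3), and those libraries overlapped the non-irradiated CD24+ ones.

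The other genes differed less. Axin2 had 17.8, 17.02 and 12.3 FPKM in irradiated CD24+ libraries, against 7.95 and 12.1 FPKM in non-irradiated ones, and its log2 fold change was 0.61 ± 0.29 (SE, limma adjusted p = 0.348). The lowest irradiated and the higher non-irradiated library of Axin2 were almost equal. Myc averaged 12.3 ± 1.91 FPKM in irradiated cells (SD, n = 3) and 7.93 ± 3.91 FPKM in non-irradiated cells (SD, n = 2), with libraries that overlapped. Sp5, at 1.21 ± 0.188 FPKM in irradiated cells (SD, n = 3) and 0.728 ± 0.337 FPKM in non-irradiated cells (SD, n = 2), had a log2 fold change of 0.36 ± 0.23 (SE), and Tcf7 had one of 0.25 ± 0.20 (SE). Sox9, Nkd1 and Bambi had the smallest absolute log2 fold changes of the 9 genes, with log2 fold changes of 0.11 ± 0.27 for Sox9, -0.16 ± 0.20 for Nkd1 and -0.15 ± 0.36 for Bambi (SE). Relative to the median gene, which stood at 0.32, they were at -0.21, -0.48 and -0.47, where Axin2 was at 0.29, Myc at 0.31 and Tcf7 at -0.072. Nkd1 and Bambi thus lay at the 3.69th and 3.90th percentile of all genes. This comparison and the first share the irradiated CD24+ libraries. Nkd1 had 4.95, 3.98 and 3.71 FPKM in irradiated libraries, against 4.50 and 5.09 FPKM in non-irradiated ones. Of the 9 genes 5, namely Axin2, Ccnd1, Cd44, Tcf7 and Sp5, had every irradiated library above both non-irradiated ones, beside 34.2% of all genes and 0% called.

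The outcome depended on the non-irradiated libraries. In replicate 1 of that group 9362 genes reached 1 FPKM, where the other CD24+ libraries had 10293 to 10555, and its median-of-ratios factor was 0.519, against 0.848 to 0.966. Without non-irradiated replicate 2, Ccnd1 and Cd44 were called (adjusted p = 0.0204 and 0.0216, where leaving out other libraries gave up to 0.872 and 0.926), in a fit that called 46.4% of all genes higher. With replicate number as a block, limma called 77 genes higher and 15 lower and again none of the 9. Proliferation markers summed to 179 to 277 FPKM in irradiated and 88.4 and 196 FPKM in non-irradiated CD24+ libraries, and tuft markers to 9.52 to 23.1 FPKM in irradiated and 31.4 and 42.8 FPKM in non-irradiated ones. Enteroendocrine markers (10 of 10) summed to 373 to 1453 FPKM in irradiated and 218 and 264 FPKM in non-irradiated CD24+ libraries. Crypt base columnar stem cell markers summed to 1069 to 1319 FPKM in irradiated and 588 and 892 FPKM in non-irradiated CD24+ libraries, and 0 of 9 were called. Most of each sum was Olfm4, at 845 to 1059 FPKM in irradiated and 461 and 703 FPKM in non-irradiated libraries. Of the 9 markers 5 had every irradiated library above both non-irradiated ones, beside 34.2% of all genes. The part of these cells was not tested.

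Irradiated CD24− cells were also set against non-irradiated CD24+ cells, which differ in both gate and irradiation and share the CD24− libraries with the first comparison. Of the 9 genes 4 fell and 2 rose, where 4.99% of all genes were called lower and 65.7% higher. Bambi fell by 3.52 ± 0.36, Nkd1 by 2.29 ± 0.20, Sox9 by 1.63 ± 0.27 and Tcf7 by 1.24 ± 0.20 on the log2 scale (SE, limma adjusted p = 2.12e-05, 1.3e-05, 0.000345 and 0.000315). Ccnd1 rose by 1.53 ± 0.29 (SE, adjusted p = 0.000731), with 35.1, 22.8 and 23.3 FPKM in CD24− libraries, against 6.099 and 11.9 FPKM in non-irradiated ones. Sp5 rose by 1.07 ± 0.23 (SE, adjusted p = 0.00155), with every CD24− library above both non-irradiated ones, which held for 70.1% of all genes. Relative to the median gene, which rose by 0.88, Ccnd1 stood at 0.65 and Sp5 at 0.20. Axin2, Myc and Cd44 had log2 fold changes of -0.50 ± 0.29, -0.39 ± 0.36 and 0.27 ± 0.28 (SE), were not called, and overlapped between the groups. After median-of-ratios scaling, Axin2 (-1.48, adjusted p = 0.0012) and Myc (-1.33, 0.0036) were called lower and Sp5 was not called (0.48, 0.0886). Under TPM Sox9 (-0.43, 0.168) and Tcf7 (-0.32, 0.196) were not called, and Axin2, Myc and Cd44 were called higher (0.77, 0.83 and 1.42), where 93.2% of all genes were.

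Further genes of the pathway were counted from 4 lists. A list of 10 further targets had a median log2 fold change of -1.14 between irradiated CD24− and CD24+ cells. Of its 8 tested genes 7 fell and 0 rose, beside 7.27% of all genes called lower and 48.6% higher, and only Ephb2, an Eph receptor that sorts crypt cells, was not called. Lgr5, Ascl2 and Tnfrsf19 are also among the crypt base columnar stem cell markers counted above, so those counts share these genes. After median-of-ratios scaling 8 of 8 further targets were called lower, beside 27.7% of all genes. Under TPM 4 were called lower and 1, Ephb2, higher, beside 2.32% and 89.4% of all genes. Lgr5, the R-spondin receptor that marks crypt base stem cells, stood at 1.28, 0.854 and 0.359 FPKM in CD24− libraries, against 10.8, 9.71 and 9.34 FPKM in CD24+ libraries, and fell by 2.61 ± 0.21 (SE, adjusted p = 7.53e-06). Ephb3, another Eph receptor, averaged 2.34 ± 1.08 FPKM in CD24− and 22.1 ± 2.68 FPKM in CD24+ cells (SD, n = 3 each), a fall of 2.84. The stem cell transcription factor gene Ascl2 averaged 1.57 ± 1.41 FPKM in CD24− and 5.89 ± 1.98 FPKM in CD24+ cells (SD, n = 3 each) and fell by 1.54, which was not called under TPM (-0.70, adjusted p = 0.109). Lgr5 stood at 12.9%, 8.58% and 3.61% of its CD24+ mean in CD24− replicates 1, 2 and 3, and Ephb3 at 15.8%, 9.82% and 6.13%, above the 90th percentile of the Paneth products in each.

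Genes that carry the signal lay near the values of all genes. Of 14 tested cytoplasmic pathway genes 9 rose, 0 fell and 5 were not called between irradiated CD24− and CD24+ cells, beside 48.6% of all genes called higher and 7.27% lower, and their median log2 fold change was 0.62 beside 0.51 for all genes. After median-of-ratios scaling 1 of the 14, Gsk3a, was called higher and 2, Amer1 and Dvl2, lower, with a median of 0.034, beside 29.9% and 27.7% of all genes. Under TPM 14 of 14 were called higher, beside 89.4% of all genes. Ctnnb1, which encodes β-catenin, averaged 282 ± 15.3 FPKM in CD24− and 149 ± 2.07 FPKM in CD24+ cells (SD, n = 3 each) and rose by 0.92 ± 0.24 (SE, adjusted p = 0.00739), but was not called after median-of-ratios scaling (0.28, adjusted p = 0.0873). Apc rose by 0.53 (-0.011 after median-of-ratios scaling), the kinase gene Gsk3a by 1.43 and Fbxw11, which encodes a ubiquitin ligase subunit that recognises β-catenin, by 0.86 (0.27 after that scaling, not called). Of 10 tested nuclear partners 4 rose, 1 fell and 5 were not called, a share near that of all genes, with a median of 0.43. They had 2 called higher and 3 lower after median-of-ratios scaling, and 8 higher and 0 lower under TPM, where 89.4% of all genes were called higher. Tle4, a Groucho-type corepressor of TCF factors, averaged 16.7 ± 2.82 FPKM in CD24− and 4.33 ± 0.373 FPKM in CD24+ cells (SD, n = 3 each) and rose by 1.72 ± 0.19 (SE, adjusted p = 3.61e-05), 1.21 above the median gene. It was also called higher after median-of-ratios scaling (1.14, adjusted p = 0.000166). Ctnnbip1, an inhibitor that keeps β-catenin from TCF factors, rose by 0.89, and Tcf7l2, which encodes TCF4, the main TCF factor of the intestine, averaged 6.01 ± 1.31 FPKM in CD24− and 3.35 ± 0.342 FPKM in CD24+ cells (SD, n = 3 each) and rose by 0.67, but by 0.15 after median-of-ratios scaling, where it was not called.

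Of 5 tested genes for Wnt secretion, coreceptors and R-spondin receptors 1 rose, 2 fell and 2 were not called, beside 48.6% of all genes called higher and 7.27% lower. After median-of-ratios scaling 0 were called higher and 3 lower, beside 29.9% and 27.7% of all genes. Under TPM 4 were called higher and 0 lower, beside 89.4% and 2.32% of all genes. Wls, needed to release Wnt ligands, averaged 4.30 ± 1.45 FPKM in irradiated CD24− and 10.7 ± 1.62 FPKM in irradiated CD24+ cells (SD, n = 3 each) and fell by 1.17 (-0.077 under TPM, not called). The coreceptor gene Lrp6 rose by 0.65, 0.14 above the median gene, and was not called after median-of-ratios scaling. Between irradiated and non-irradiated CD24+ cells 0 genes of the 4 lists were called, and 1 had an unadjusted p under 0.05. Against non-irradiated CD24+ cells, where 65.7% of all genes were called higher and 4.99% lower, irradiated CD24− cells had 6 of 8 further targets lower and 0 higher, 11 of 14 cytoplasmic genes higher and 0 lower, 6 of 10 nuclear partners higher and 0 lower, and 2 of 5 genes of secretion and reception higher and 1 lower. After median-of-ratios scaling (27.5% of all genes higher, 25% lower) 1 of the 14 cytoplasmic genes was called higher and 3 lower, and 1 of the 10 nuclear partners higher and 2 lower. The further targets were then 8 of 8 lower, and the 5 genes of secretion and reception 0 higher and 3 lower. Under TPM (93.2% higher, 1.89% lower) 14 of 14 cytoplasmic genes and 9 of 10 nuclear partners were called higher and 0 lower. The further targets were then 2 higher (Ephb2 and Rnf43) and 3 lower, and the genes of secretion and reception 4 higher and 0 lower. On the deposited values of this comparison Lgr5 (-2.44), Tle4 (2.15), Gsk3a (1.82) and Wls (-1.28 on the log2 scale) had the smallest p of their lists. The fold change of Ephb3 (-2.56) was larger in size than that of Lgr5.

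**Figure D5:**
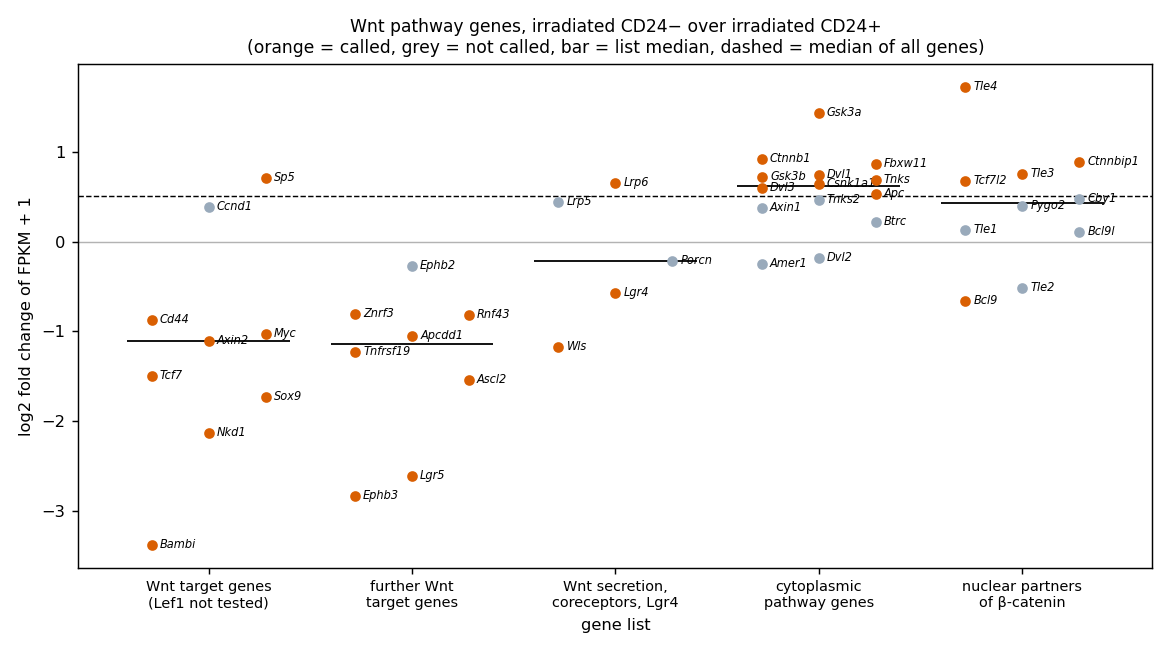
Log2 fold change of FPKM + 1 (vertical axis), irradiated CD24− over irradiated CD24+ cells, of each tested gene in 5 Wnt pathway lists (horizontal axis), with called genes in orange, list medians as bars and the median of all genes dashed at 0.51. Both target lists lie mostly below 0, with medians of -1.11 and -1.14 (0.036 and -0.69 under TPM), and the cytoplasmic list lies around the median of all genes.

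Across the 8 libraries the targets fell into profiles of several kinds. Likeness was the root mean square (RMS) difference between 2 genes' log2(FPKM + 1) values after each gene's mean was removed, so smaller is more alike, and it is given as a description. Within the set the closest pairs were Axin2 with Myc (0.24), Sox9 with Tcf7 (0.26) and Sox9 with Nkd1 (0.32). The added 1 shrinks differences of genes near or under 1 FPKM, which can make such genes look alike. The irradiated CD24− mean was 0.255 of the irradiated CD24+ mean for Sox9 and 0.0453 for Nkd1. Of the neighbours named below, Angpt2 averaged at most 1.41 FPKM and Fetub at most 1.32 FPKM in any group. Among all tested genes Axin2 lay nearest to Angpt2 and Sox4 (0.15 each), Sox9 to Paip2b and Foxa3 (0.11 each), and Tcf7 to Cep78 (0.076) and Fam89a (0.10). Nkd1 lay nearest to the fucosyltransferase gene Fut1 and the monocarboxylate transporter gene Slc16a7 (0.12 and 0.13), and Bambi to the coat protein gene Copz2 (0.18) and Bhlha15 (0.25), a transcription factor of secretory cells. Bhlha15 averaged 2.92 FPKM in irradiated CD24−, 47.5 in irradiated CD24+ and 44.03 in non-irradiated CD24+ cells. Myc lay nearest to Smo and Lipt2 (0.12 each), Ccnd1 to Dapk2 (0.14) and Snora5c (0.15), Cd44 to Fetub and R3hdml (0.18 and 0.22), and Sp5 to Sp110 (0.12) and Mllt11 (0.13). The third nearest to Cd44 was Eda2r (0.22), which was noticed after its values were seen and lies outside the 2 named for each gene. Eda2r averaged 0.688 FPKM in irradiated CD24−, 2.29 in irradiated CD24+ and 0.278 in non-irradiated CD24+ cells. These are low levels, where the added 1 can make genes look alike.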

How the data were processed

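RNA was sequenced from 8 libraries of sorted mouse intestinal cells on unstranded TruSeq RNA v2 libraries, per the labels' protocols. The deposited table holds the authors' FPKM values, 1 column a library. Of tools and builds, TopHat2 2.1.0, StringTie 1.3.4 and mm9 are named per the submitters' processing notes. The annotation is not given in the sources used here. The 24015 entries gave 24013 symbols (2 repeated entries were summed). Genes with at least 1 FPKM in at least 2 libraries were kept (11190), transformed as log2(FPKM + 1) and fitted over all 8 libraries with limma 3.58.1 in R 4.3.3 (eBayes with trend), with Benjamini-Hochberg adjustment and a threshold of 0.05. The fit was tested on simulated data with few changed genes and no shift of the median gene, unlike the first comparison. That test thus does not bear on the scaling. SE is limma's moderated standard error. Depth was approximated from the lowest peak of FPKM times transcript length over 5378 genes with 1 GENCODE M21 transcript. Within irradiated mice, same-numbered libraries of both gates had residuals that correlated across genes at r = 0.366, 0.231 and 0.402, and differently numbered ones at -0.381 to 0.0518. Irradiated and non-irradiated CD24+ libraries, which differ in treatment, gave 0.232 for number 1 and -0.0499 for number 2. The data thus do not settle a pairing. The labels do not say what the number marks, and the block was an alternative. The members and gene lists were chosen with earlier results of these data known. Named were all members, Ctnnb1, Apc, Tcf7l2, Lgr5, Ascl2, the 2 called genes of smallest p per list (1 in the other comparisons) and the 2 nearest profiles. Figures were drawn with matplotlib 3.10.9. The pathway and marker lists were recounted under the other scalings, and immune markers summed without Lyz2, as choices made after seeing the data.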

Additional observations from a re-analysis of the deposited data

How the results depend on the processing

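Calls and directions were recomputed under another pseudocount, 2 other filters, 3 other scalings, a fit of only the 2 groups compared, the replicate block and leaving out each library, where a group of 1 library borrowed its spread from the others. Of the 9 genes, 8 were called between irradiated CD24− and CD24+ cells, and 5 when only genes at 5 FPKM were tested, because 3 members then dropped out; 8 were called with the replicate block (also with only irradiated libraries in that fit, added after seeing the data) and 7 to 8 with 1 library left out. With no filter Lef1 was called lower and Myc was not. For irradiated against non-irradiated CD24+ cells the count was 0, and 0 to 2 with 1 library left out; for irradiated CD24− against non-irradiated CD24+ cells it was 6, 3 with the filter at 5 FPKM, and 6 to 7 with 1 library left out. The replicate block changed the call of no member. Signs turned between irradiated CD24− and CD24+ cells under TPM for Axin2 (0.036), Cd44 (0.23) and Myc (0.087) and under median-of-ratios scaling for Ccnd1 (-0.22). Between irradiated and non-irradiated CD24+ cells they turned for Bambi under TPM (0.0070), with the replicate block (0.066) and without irradiated replicate 3 (0.035) or non-irradiated replicate 1 (0.19; range with 1 library left out -0.49 to 0.19), for Sox9 under median-of-ratios scaling (-0.32) or without non-irradiated replicate 1 (-0.013), and for Tcf7 under median-of-ratios scaling (-0.13). Between irradiated CD24− and non-irradiated CD24+ cells they turned under TPM for Axin2 (0.77) and Myc (0.83), under median-of-ratios scaling for Cd44 (-0.61), and without non-irradiated replicate 2 for Myc (0.067; range with 1 library left out -0.86 to 0.067). The scalings differ by construction in the level of the median gene; other causes were not tested. Lef1 lies too low to compare at this depth.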
